A study of Mus musculus with 24 samples.

Results

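The step examined here is the 6 h from zeitgeber time 18 (ZT18) to ZT0 in mouse liver, the last part of the dark phase. Zeitgeber time counts hours of the light and dark cycle from lights on at ZT0. The comparison set the 3 arrays labelled ZT0 against the 3 arrays labelled ZT18, 6 of the 24 arrays of a series that sampled 8 times of day with 3 arrays each. All arrays held total liver RNA from male mice of 13 weeks on an unrestricted chow diet, of the strain the labels write as C56bl/6J. The labels give no genotype, treatment or feeding schedule that differed between the groups, and time point is the only difference between them that they state. Each was a whole-transcript Affymetrix array hybridised with DNA made from 300 ng of RNA, and a gene's value is the mean of its probe sets on the deposited log2 scale. The labels number the replicates 1 to 3 and do not say that they are separate animals, so the p-values speak for the scatter among these arrays, part of which may be technical.

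The liver clock is a feedback loop in which BMAL1 (gene Arntl) with CLOCK or NPAS2 turns on the Per and Cry genes, whose proteins then shut that activity down. A further loop runs through the REV-ERB receptors (Nr1d1 and Nr1d2), which repress Arntl, Npas2, Nfil3 and Cry1. Mice feed mainly in the dark, so the passage from ZT18 to ZT0 is also a passage from feeding towards the daytime rest, and many liver genes for lipid, glucose and bile acid metabolism cycle with it.

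The arrays themselves were compared first, because the ZT0 arrays spread widely. Over genes, the median SD of the 3 arrays was 0.269 at ZT0 against 0.225 at ZT18, and it ranged from 0.216 to 0.246 at the times other than ZT0. ZT0 replicate 1 stood apart from the rest: its mean correlation with the other arrays was 0.9678, where the other arrays had 0.9802 to 0.9855. It held the highest value of the 24 arrays for 10.6% of genes and the lowest for 10.1%. The liver label held on every array of the step, since the 12 measured hepatocyte identity genes (albumin, apolipoproteins and liver transcription factors among them) had a mean level of 16.74 to 16.92 on all 6.

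Markers of neutrophils and macrophages, and most acute-phase genes, had their highest level of the series on ZT0 replicate 1. The mean of 12 neutrophil genes was 9.94 on that array and at most 4.99 on the other 23 arrays, and all 12 genes had their highest value there. S100a8, which encodes a calcium-binding protein of neutrophils, read 4.01, 4.41 and 4.06 at ZT18 and 12.49, 4.78 and 4.35 at ZT0, in the order of replicates 1 to 3. Retnlg read 4.08, 4.26 and 4.35 at ZT18 and 12.21, 5.29 and 5.08 at ZT0. ZT0 replicate 1 was far above all other arrays for both genes. Without it the difference was 0.41 for S100a8 (limma adjusted p = 0.736) and 0.95 for Retnlg (limma adjusted p = 0.330), whose other ZT0 arrays also lay above ZT18. On the other 23 arrays these genes read at most 4.78 and 5.63, under the background of 6.17 set by olfactory receptor genes. Differences among those arrays are thus near the floor. The 13 markers of Kupffer cells, the resident macrophages of the liver, had a mean of 11.65 on ZT0 replicate 1 and at most 9.35 on the others, and all 13 were highest there. Vsig4, a complement receptor of these cells, read 9.32, 9.51 and 9.23 at ZT18 and 13.96, 9.68 and 10.74 at ZT0. In whole liver RNA, more cells of a type and more RNA per cell cannot be told apart. Among 26 acute-phase genes, which the liver switches on in inflammation, 19 were highest on this array, and their mean was 16.16 against at most 14.70 elsewhere. Saa2, serum amyloid A2, reached the top of the scale at 19.93 on it, with 14.38 and 11.92 on the other ZT0 arrays and 10.22, 10.96 and 12.61 at ZT18. It was not high there alone, since the highest of the other 23 arrays read 19.32, with a median of 11.70. Orm2, an orosomucoid, read 19.83 there and 9.95 and 8.27 on the other ZT0 arrays, and the highest of the other 23 read 14.39, with a median of 8.87. Both probe sets of Saa2 and 2 of the 3 of Orm2 reached the top of the scale on at least 1 of the 6 arrays, so their differences are limited by it. The part of these transcripts in the results below was not tested, and values with and without this array are set side by side. Saa2, Orm2 and the marker genes were chosen after their values were seen.

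**Figure D1:**
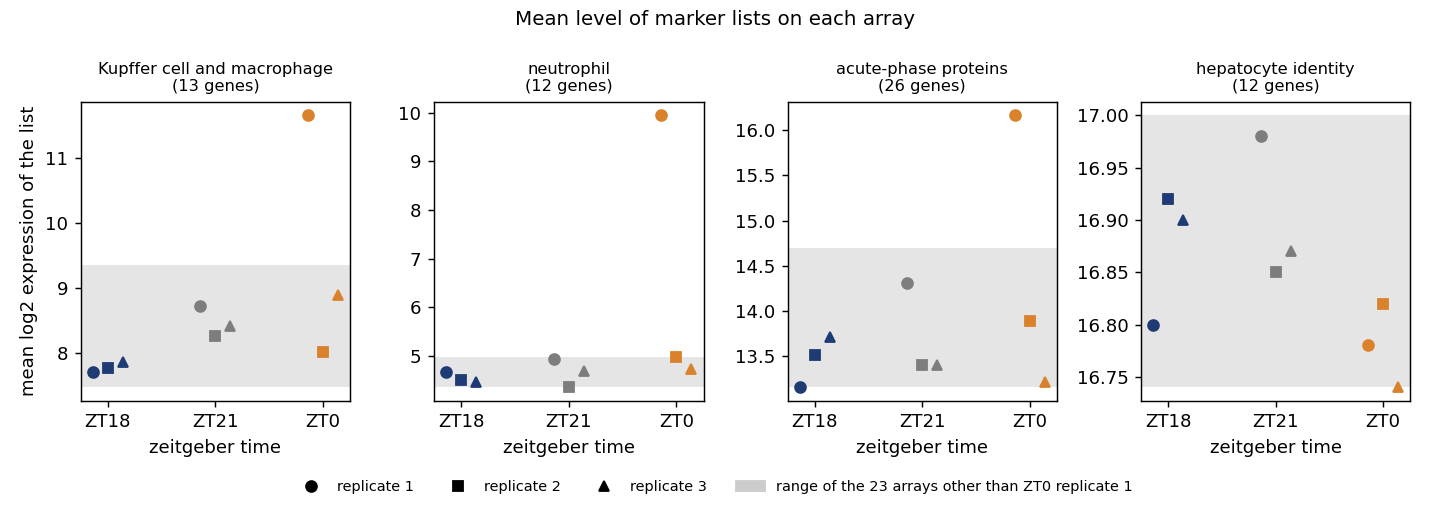
Mean log2 expression (vertical axis) of 4 gene lists on each array at ZT18, ZT21 and ZT0 (horizontal axis), 1 point per array with the shape giving the replicate; the grey band is the range over the 23 arrays other than ZT0 replicate 1. ZT0 replicate 1 lies above the band for Kupffer cell (11.65), neutrophil (9.94) and acute-phase genes (16.16), and inside it for hepatocyte identity genes (16.78).

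Between ZT18 and ZT0 most of the genes that passed the test fell. By limma with Benjamini-Hochberg adjustment over 23152 genes at a threshold of 0.05, 31 genes passed (0.134%), of which 27 were lower at ZT0 (0.117%) and 4 were higher (0.0173%). Over all genes, 6.13% had the 3 ZT0 arrays above the ZT18 arrays and 9.03% had them below. All 31 passing genes separated the 6 arrays without overlap, which selection by a small p on these arrays favours. Their absolute log2 difference ranged from 0.75 to 3.93 with a median of 1.18, and 24 of them differed at least 2-fold. An unadjusted p under 0.05 was reached by 2845 genes (12.3%), 1291 of them higher at ZT0 (5.58%) and 1554 lower (6.71%). Among the 10289 genes whose mean lay above the background, set at 6.17 by olfactory receptor genes, these shares were 5.51% higher and 11.6% lower. The median difference was -0.0066 over all genes and -0.0725 over the genes above background. The number of passing genes moved with single arrays: it was 6 (0.0259%) without ZT0 replicate 1, 420 without ZT0 replicate 2, 18 without ZT0 replicate 3 (7 higher and 11 lower), 0 without ZT18 replicate 1 (2741 genes at an unadjusted p under 0.05), 2 without ZT18 replicate 2 and 6 without ZT18 replicate 3. The balance of directions turned without ZT0 replicate 2, where 270 of the 420 genes were higher and 150 lower (35.7%). In the fit without ZT0 replicate 1, all 31 genes kept their sign and an unadjusted limma p under 0.05, and 5 of them passed after adjustment. The kept sign was fixed in advance, since the arrays of these genes do not overlap. The genes were selected with the same remaining arrays, which favours a small p.

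Cry1, a repressor at the core of the clock, was the single clock gene to pass, and it fell. Its 250 bases upstream of the RefSeq start (chr10:85185055-85185304, minus strand, GRCm38.p6) are shown because the E-box CACGTG, the site class of CLOCK and BMAL1, stands in them, in capitals, at bases -60 to -55.
Cry1: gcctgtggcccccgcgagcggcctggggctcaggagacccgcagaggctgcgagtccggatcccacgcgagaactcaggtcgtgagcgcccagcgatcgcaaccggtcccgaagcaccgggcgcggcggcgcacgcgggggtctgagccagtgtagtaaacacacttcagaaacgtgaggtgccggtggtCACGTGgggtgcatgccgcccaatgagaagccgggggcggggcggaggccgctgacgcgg
This window was searched on both strands for the E-box, the D-box TTANNTAA bound by DBP, TEF, HLF and NFIL3, the element TAGGTCA or TGGGTCA of REV-ERB and ROR, and the sterol element bound by SREBP proteins. The E-box, which reads the same on both strands, was found in 7.15% of 32851 RefSeq promoter windows of 250 bases before to 50 after a start. It stood in 5 of the 17 clock genes that have a window, Per1, Ciart, Bhlhe41 and Tef beside Cry1. A match to these letters is a description and not evidence of binding.

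Cry1 read 10.74, 11.07 and 11.30 at ZT18 and 6.95, 7.71 and 9.69 at ZT0. All ZT0 arrays were lower than all ZT18 arrays, and replicate 3 of ZT0 was the closest to them. The mean went from 11.04 ± 0.28 to 8.12 ± 1.42 (SD, n = 3), a log2 difference of -2.92 ± 0.51 (SE; limma adjusted p = 0.0321), so that the ZT18 level was 7.57-fold higher. At ZT21 the mean was 10.05. Without ZT0 replicate 1 the difference was -2.34 with an adjusted p of 0.138. All 13 probe sets of the gene were lower at ZT0.

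No other measured member of the 3 clock lists passed, although several differed widely in their means. Nr1d1, which encodes REV-ERB alpha, read 6.03, 7.05 and 6.02 at ZT18 and 10.78, 9.98 and 7.31 at ZT0, a difference of 2.99 ± 0.82 (SE; limma adjusted p = 0.135; 2.28 without ZT0 replicate 1). Nr1d2, for REV-ERB beta, read 9.35, 8.87 and 8.20 at ZT18 and 12.43, 11.24 and 9.31 at ZT0, a difference of 2.19 ± 0.55 (adjusted p = 0.112; 1.47 without it). In both genes ZT0 replicate 1 was the highest and ZT0 replicate 3 the lowest of the ZT0 arrays, and for Nr1d2 the latter overlapped ZT18. Per2, a partner of the CRY proteins, read 8.87, 7.90 and 8.71 at ZT18 and 7.12, 6.81 and 6.58 at ZT0, which do not overlap, a difference of -1.66 ± 0.43 (adjusted p = 0.121; -1.80 without it). Per1 differed by -1.29 (adjusted p = 0.389; -1.46 without it) and Cry2 by -0.75 (adjusted p = 0.394; -1.23 without it).

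The 3 ZT0 arrays did not show the same clock state. Arntl, the BMAL1 gene, read 9.35, 11.35 and 12.14 at ZT0 and 11.78, 11.93 and 12.07 at ZT18, so that ZT0 replicate 3 was above every ZT18 array and replicate 1 far below. Dbp, a transcription factor gene driven by CLOCK and BMAL1, read 10.43, 6.54 and 5.96 at ZT0 and 6.86, 6.05 and 6.88 at ZT18. Per3 read 9.34, 6.01 and 5.60 at ZT0 and 7.67, 6.25 and 6.74 at ZT18. Both were high on ZT0 replicate 1 only. Over all 19 measured clock genes, the mean absolute distance of ZT0 replicate 1 was 1.62 from the ZT18 means, 1.59 from the ZT21 means and 0.51 from the ZT3 means. ZT0 replicate 3 had the opposite order, with 0.81, 0.33 and 1.85, and ZT0 replicate 2 had 1.00, 0.81 and 1.13. The arrays nearest to the ZT3 and to the ZT21 pattern were thus both labelled ZT0. Mean differences of clock genes over these arrays carry this spread. Without ZT0 replicate 1, the differences were -0.35 for Dbp, -1.09 for Per3 and -0.19 for Arntl, against 1.05, 0.09 and -0.98 with it.

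**Figure D2:**
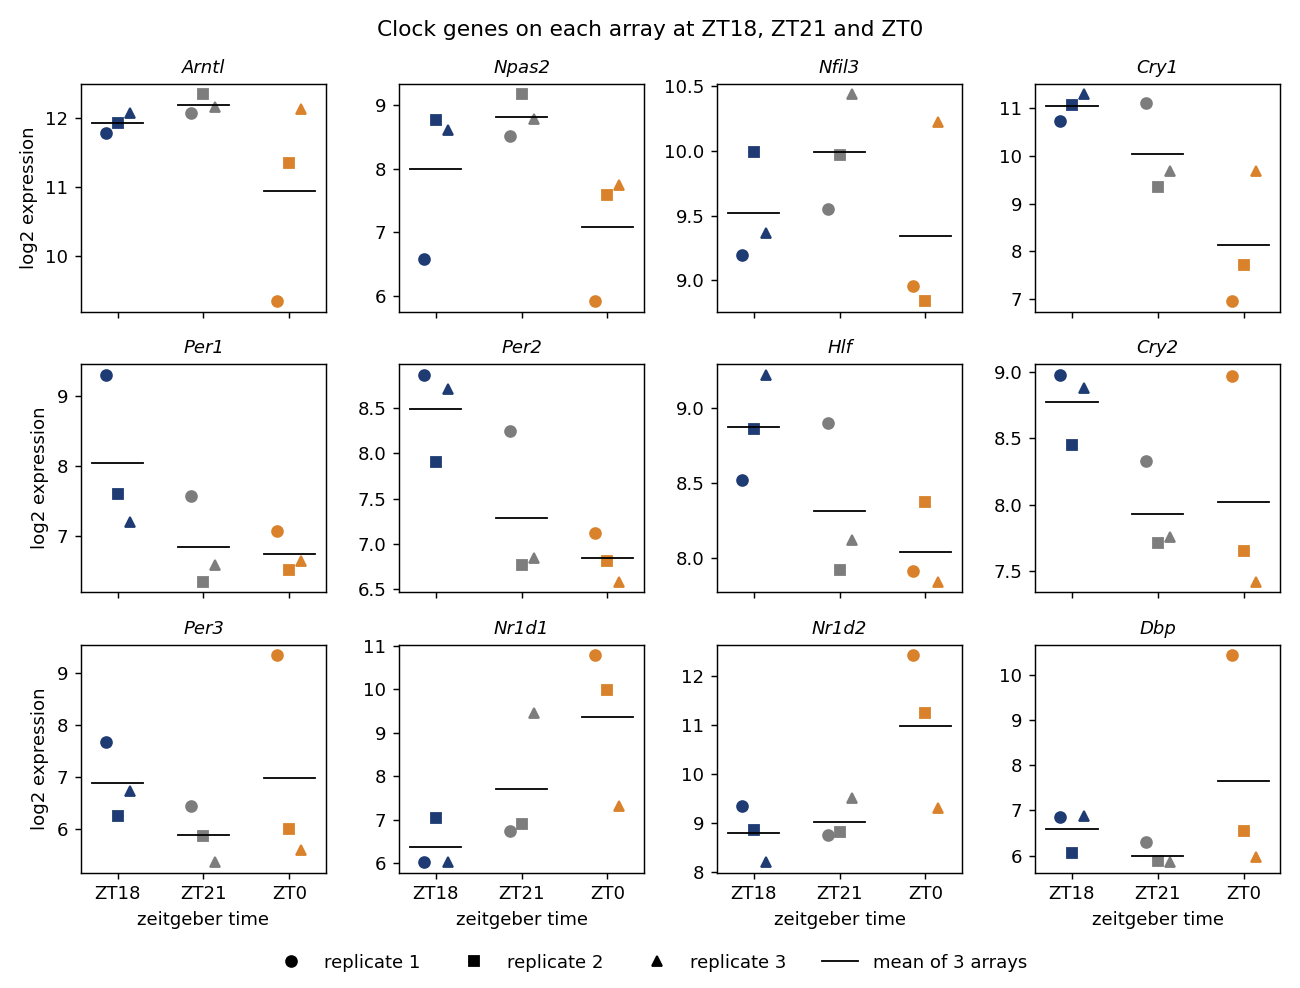
Log2 expression (vertical axes, scaled per gene) of 12 clock genes on each array at ZT18, ZT21 and ZT0 (horizontal axis); shapes give the replicate and lines the mean of 3 arrays. Cry1 and Per2 have no overlap between ZT18 and ZT0, while Dbp and Per3 are high on ZT0 replicate 1 only (10.43 and 9.34).

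Several of the genes that fell encode enzymes or regulators of liver metabolism. Mif, the gene of macrophage migration inhibitory factor, a cytokine with tautomerase activity that hepatocytes also make, had the smallest adjusted p. It read 14.15, 14.08 and 14.05 at ZT18 and 11.69, 12.44 and 12.37 at ZT0. The arrays within each time lay close together and the groups were far apart, with a log2 difference of -1.93 ± 0.26 (SE; limma adjusted p = 0.00908), 3.80-fold higher at ZT18. The difference held without ZT0 replicate 1, at -1.69 with an adjusted p of 0.0355. Afmid, arylformamidase of the tryptophan to kynurenine route, read 14.62, 14.38 and 14.29 at ZT18 and 12.86, 13.14 and 13.13 at ZT0, a difference of -1.39 ± 0.22 (adjusted p = 0.0210), which became -1.30 (0.0887) without ZT0 replicate 1. Ces1d, a carboxylesterase that hydrolyses triglyceride, read 14.52, 13.91 and 14.26 at ZT18 and 11.27, 12.52 and 12.52 at ZT0. Its difference was -2.13 ± 0.39 (adjusted p = 0.0374), and -1.71 (0.138) without the lowest of those arrays, ZT0 replicate 1. Gchfr, the feedback regulator of GTP cyclohydrolase in tetrahydrobiopterin synthesis, read 10.86, 11.09 and 10.43 at ZT18 and 10.01, 9.43 and 9.17 at ZT0. Here ZT0 replicate 1 was the closest to ZT18, and the difference of -1.25 ± 0.24 (adjusted p = 0.0435) became -1.49 (0.0355) without it.

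A gene of sugar transport, a gene of nucleoside transport and Rnasek fell as well. Slc50a1, a sugar transporter of the SWEET family, read 8.68, 8.71 and 8.44 at ZT18 and 7.41, 7.33 and 7.55 at ZT0, a tight separation with a difference of -1.18 ± 0.17 (limma adjusted p = 0.0134) and -1.17 (0.0355) without ZT0 replicate 1. Slc29a1, the equilibrative nucleoside transporter ENT1, read 11.07, 10.82 and 10.57 at ZT18 and 10.16, 9.72 and 9.24 at ZT0, a difference of -1.11 ± 0.22 (adjusted p = 0.0435), and -1.34 (0.0355) without ZT0 replicate 1. Rnasek, ribonuclease kappa, read 11.78, 12.07 and 11.65 at ZT18 and 10.87, 10.70 and 10.22 at ZT0, a difference of -1.24 ± 0.20 (adjusted p = 0.0210), and -1.38 (0.0355) without that array. These 3 genes and Mif and Gchfr are the 5 that passed with and without ZT0 replicate 1. The sixth gene to pass without it was Tk1, thymidine kinase 1, which read 9.73, 9.73 and 9.81 at ZT18 and 9.39, 7.28 and 8.33 at ZT0.

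Nat8f6 and Nat8f7, members of a cluster of acetyltransferase genes on chromosome 6 (Nat8f6 at 85808044 to 85809877, Nat8f7 at 85706707 to 85708885, GRCm38.p6), both fell. Nat8f6 showed the largest difference among the 31 passing genes, -3.93 ± 0.63 (limma adjusted p = 0.0210), with 9.54, 7.58 and 8.52 at ZT18 and 2.94, 6.35 and 4.57 at ZT0. The values of 2.94 and 4.57 lie under the background of 6.17, so the size of this fall is uncertain. Nat8f7 went from 8.0 ± 0.35 to 6.43 ± 0.54 (SD, n = 3), a difference of -1.57 (adjusted p = 0.0321). Of the 3 probe sets of Nat8f7, 2 were lower at ZT0 and 1 was higher. Nat8f5, beside Nat8f6 and Nat8f7, differed by -4.70 (adjusted p = 0.0695; -2.78 without ZT0 replicate 1) and is named after its values were seen. These genes are close copies of each other with only 2 or 3 probe sets each, so signal may be shared between them. Without ZT0 replicate 1, the difference was -3.09 for Nat8f6 (adjusted p = 0.0874) and -1.32 for Nat8f7 (0.137).

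Chchd10 and Tmem25 complete the 12 falls chosen by rule. Chchd10, a protein of the mitochondrial intermembrane space, read 14.87, 14.70 and 14.40 at ZT18 and 13.00, 13.88 and 13.49 at ZT0, a difference of -1.20 ± 0.24 (limma adjusted p = 0.0435) and -0.97 (0.182) without ZT0 replicate 1. Tmem25 went from 9.53 ± 0.46 to 8.09 ± 0.39 (SD, n = 3), a difference of -1.44 (adjusted p = 0.0435) and -1.25 (0.146) without that array. Mif and Chchd10 lie on the same part of chromosome 10, and each holds TGGGTCA, in capitals, just after its start (bases 25 to 31 for Mif at chr10:75860235-75860264, minus strand, and 24 to 30 for Chchd10 at chr10:75933142-75933171, plus strand; RefSeq, GRCm38.p6).
Mif: cggtactgagcTGGGTCAcgtagctcaggt
Chchd10: tagcaggcaacTGGGTCAgttggctgggag
The letters of this element, TAGGTCA and TGGGTCA on either strand, were found in the windows of 5 of the 26 passing genes that have a window (19.2%) and in 6.45% of all windows; the others were Tmem25, Slc29a1 and Slc13a2. The E-box stood in 1 of the 26, the D-box in 3 and the sterol element in 0.

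A further 15 genes fell and passed but lie outside the rule by which genes were chosen, either because 12 larger falls stood before them, because their mean was not above background, or because they are unnamed gene models; they are given by their log2 difference with all arrays and then without ZT0 replicate 1, and were chosen after these were seen. Those of mitochondria and iron were Mrpl4 (-1.06 and -1.04), of the mitochondrial ribosome, Uqcrc1 (-0.75 and -0.71), of respiratory complex III, Ndufv3 (-1.07 and -1.13), of complex I, and Aco1 (-0.77 and -0.67), the aconitase of the cytosol that doubles as an iron regulatory protein. Those of lipids and ion transport were Faah (-1.01 and -0.81), which breaks down fatty acid amides, Sec14l2 (-0.87 and -0.83), a lipid-binding protein, Fxyd1 (-1.03 and -0.95), a regulator of the sodium pump, and Slc13a2 (-1.32 and -1.29), a dicarboxylate transporter. Smarca2 (-1.08 and -0.96) encodes an ATPase of the SWI/SNF chromatin remodelling complex. Srgap3 (-1.88 and -1.64), Kctd21 (-1.06 and -1.15), Mcrip2 (-1.10 and -1.04), Cwf19l1 (-0.78 and -0.69) and the gene models Gm19522 (-3.04 and -2.48), a long non-coding RNA with the second largest fall of the 31 genes, and C030006K11Rik (-0.91 and -0.88) complete the group. Slc13a2 and Srgap3 had means below the background level.

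Only 4 genes rose and passed. Ifih1 encodes MDA5, a sensor of double-stranded RNA, and its 250 bases upstream of the start (chr2:62646256-62646505, minus strand, RefSeq, GRCm38.p6) are shown because a D-box match stands in them at bases -168 to -161, as in 6.00% of all windows.
Ifih1: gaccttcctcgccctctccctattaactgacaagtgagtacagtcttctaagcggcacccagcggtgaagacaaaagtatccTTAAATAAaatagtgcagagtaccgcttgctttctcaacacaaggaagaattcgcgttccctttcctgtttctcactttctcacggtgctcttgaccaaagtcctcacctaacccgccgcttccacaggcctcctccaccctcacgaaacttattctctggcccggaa
Ifih1 read 11.14, 11.07 and 11.61 at ZT18 and 12.36, 12.05 and 12.20 at ZT0. The difference was 0.93 ± 0.16 (SE; limma adjusted p = 0.0350), a 1.90-fold rise, and 0.85 (0.138) without ZT0 replicate 1. Zfp808, a zinc finger gene, read 6.23, 5.41 and 5.97 at ZT18 and 6.94, 7.16 and 7.41 at ZT0, a difference of 1.30 ± 0.25 (adjusted p = 0.0435) and 1.42 (0.118) without that array. Ly6d (1.95 and 1.69 without it) and Atp2a3 (0.99 and 0.75), a calcium pump gene, also passed, with means below the background level, and are named after their values were seen. For Atp2a3, 12 of 17 probe sets were higher at ZT0, and the sign of its difference turned when only the brightest probe set was used (-0.12). In all, 320 of the 333 probe sets of the 31 genes (96.1%) differed in the direction of their gene. A gene's value is the mean of its probe sets, so selection for a large difference favours this agreement. The share over all genes was not counted.

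**Figure D3:**
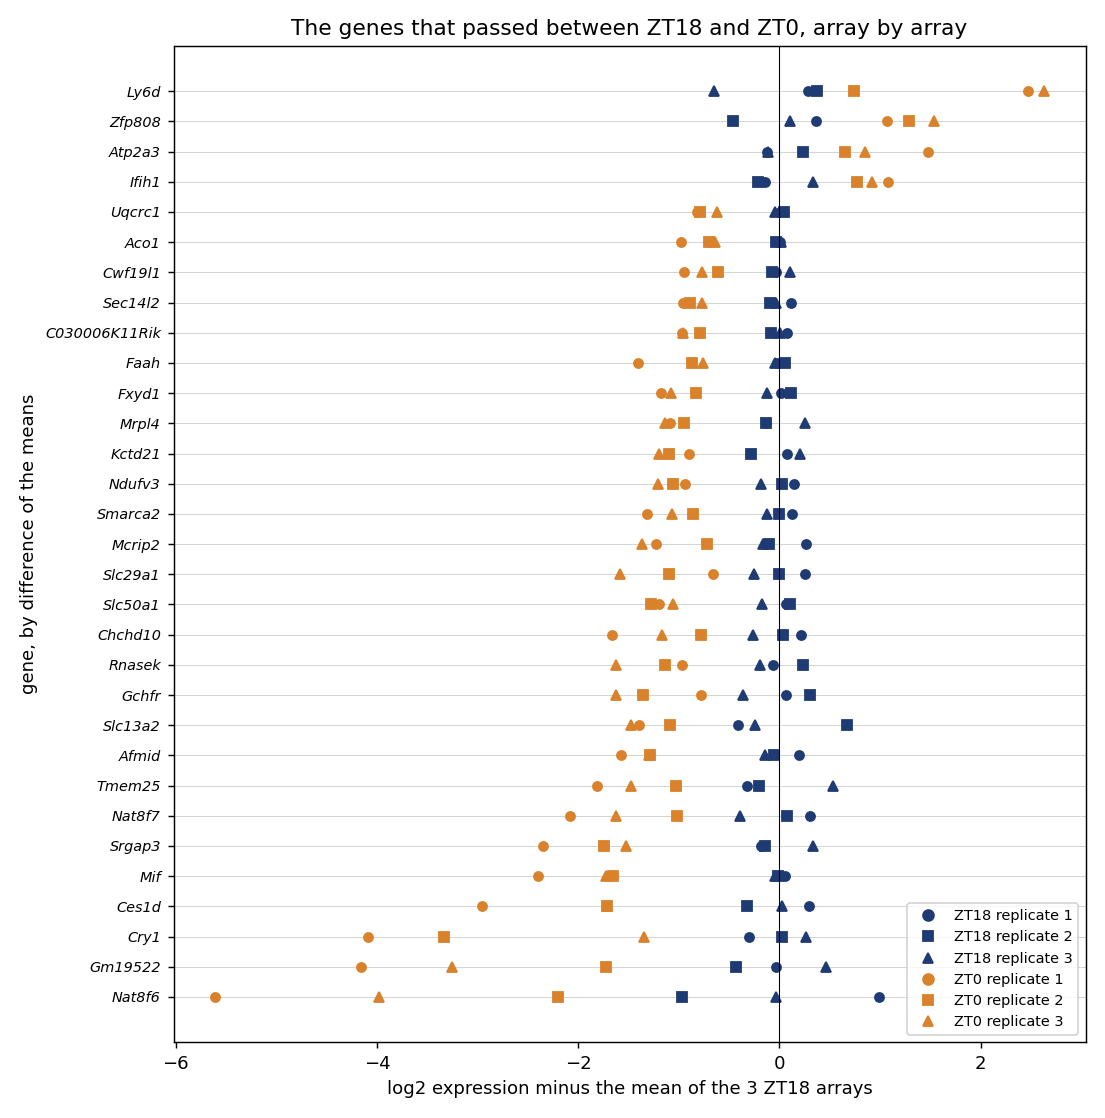
Log2 expression minus the mean of the 3 ZT18 arrays (horizontal axis) for the 31 genes that passed between ZT18 and ZT0 (vertical axis, ordered by difference), with 1 point per array; blue is ZT18, orange is ZT0 and shapes give the replicate. The 6 arrays separate for each gene, which selection on these arrays favours. ZT0 replicate 1 is the farthest from ZT18 for 20 of the 31.

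The level at ZT21 lay between those of ZT18 and ZT0 for 29 of the 31 genes. These genes were selected for a large difference between ZT18 and ZT0, which by itself favours a ZT21 level in between. The same count over all genes was not made, so this is a description. By ZT21 the median gene had covered 36% of its difference, with a range of -9.37% to 63.3%. Mif stood at 13.24, Afmid at 14.13 and Slc50a1 at 8.14 at ZT21. Tmem25, at 9.67, was above its ZT18 mean then. Neither 3-h step passed for any gene: 0 of 23152 (0.0%) for ZT21 against ZT18, with 893 genes at an unadjusted p under 0.05, and 0 (0.0%) for ZT0 against ZT21, with 2055. Of the 31 genes, ZT0 replicate 1 was the array farthest from the ZT18 mean for 20, ZT0 replicate 3 for 10 and ZT0 replicate 2 for 1.

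Gene lists for liver pathways are described by counts, with no test of the lists. Of 28 such lists, 1 had a member that passed (the clock repressors, with Cry1). The median difference was below 0 for 20 of them, and for 22 without ZT0 replicate 1. Most members of each list were above background, and genes above background as a whole had a median difference of -0.0725. The counts that follow are of members at an unadjusted p under 0.05, to be read against 5.58% higher and 6.71% lower over all genes, or 4.19% and 5.65% without ZT0 replicate 1. Over genes above background, the shares with all arrays were 5.51% higher and 11.6% lower. None of the genes named for these lists passed after adjustment.

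Output genes of the clock had 7 of 17 members lower by that measure and 0 higher, with a median of -0.60, and 6 lower with a median of -0.72 without ZT0 replicate 1. Tsku, a secreted liver protein, read 10.19, 10.61 and 10.20 at ZT18 and 5.41, 7.62 and 7.07 at ZT0. Its arrays did not overlap, and the difference was -3.63 ± 0.92 (SE; limma adjusted p = 0.112; -2.99 without ZT0 replicate 1). Usp2, a ubiquitin protease gene, had a mean of 9.49 at ZT18 and 7.08 at ZT0 (adjusted p = 0.194; difference -2.54 without that array). Marveld1 differed by -1.39 and Lonrf3 by -1.35, and by -1.27 and -0.90 without it.

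Lipid synthesis genes leaned lower, with 6 of 26 members of fatty acid and triglyceride synthesis lower and 0 higher (median -0.35; 5 lower and a median of -0.43 without ZT0 replicate 1). Dgat2, the last enzyme of triglyceride synthesis, read 16.52, 16.63 and 16.34 at ZT18 and 15.77, 16.09 and 15.03 at ZT0, a difference of -0.87 (limma adjusted p = 0.158; -0.94 without ZT0 replicate 1). Mlxipl, the gene of the carbohydrate-responsive factor ChREBP, differed by -0.96 (adjusted p = 0.189) and Agpat2 by -0.95 (adjusted p = 0.198), and by -0.83 and -1.12 without it. Elovl3, an elongase of very long chain fatty acids, read 17.75, 18.33 and 18.32 at ZT18 and 8.76, 17.60 and 16.11 at ZT0. Its mean difference of -3.98 came to -1.28 without ZT0 replicate 1, whose value was the lowest of the 24 arrays. For 4 of its 6 probe sets the top of the scale was reached on at least 1 of the 6 arrays, so these differences are bounds. Cholesterol synthesis had 1 of 20 members lower and 0 higher (2 lower without ZT0 replicate 1), and a median that turned from 0.06 to -0.32 without that array, on which 9 of the 20 had their highest value. Hmgcs1, of the early mevalonate pathway, had means of 16.90 ± 0.85 at ZT18 and 17.81 ± 0.73 at ZT0 (SD, n = 3), and its arrays overlapped (difference 0.92, and 0.50 without that array).

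Glycogen and glucose genes had 7 of 20 members lower and 1 higher (median -0.29; the same counts and a median of -0.36 without ZT0 replicate 1). Ppp1r3b, the subunit that brings protein phosphatase to glycogen, read 13.64, 13.65 and 13.70 at ZT18 and 9.61, 12.54 and 11.59 at ZT0. The ZT18 arrays agreed closely while the ZT0 arrays were all lower and scattered, with a difference of -2.42 ± 0.64 (limma adjusted p = 0.127; -1.60 without ZT0 replicate 1). Gys2, liver glycogen synthase, read 16.20, 16.03 and 15.79 at ZT18 and 14.87, 15.21 and 14.70 at ZT0, a difference of -1.08 (adjusted p = 0.148; -1.05 without it). On the side of fasting, Pck1, of gluconeogenesis, read 16.59, 17.58 and 16.78 at ZT18 and 18.08, 18.16 and 17.83 at ZT0, without overlap (difference 1.04, adjusted p = 0.585; 1.01 without ZT0 replicate 1). Igfbp1, an insulin-repressed gene, read 13.63, 9.43 and 9.04 at ZT18 and 15.01, 12.21 and 14.35 at ZT0, where ZT18 replicate 1 reached into the ZT0 range (difference 3.16, and 2.58 without ZT0 replicate 1). Gluconeogenesis and insulin targets as a list had 0 of 19 higher and 1 lower, and 0 and 4 without ZT0 replicate 1. Fatty acid oxidation and PPAR alpha targets had 2 of 31 higher and 5 lower, and 1 and 4 without it. In that list Cyp4a14, a fatty acid hydroxylase, spread widely both within ZT18 (16.13, 14.08 and 7.16) and within ZT0 (8.17, 8.66 and 14.24).

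Bile acid, heme and detoxification genes also leaned lower. Bile acid synthesis and transport had 5 of 21 members lower and 1 higher, and 5 and 0 without ZT0 replicate 1. Cyp8b1, which sets the share of cholic acid, read 12.57, 12.69 and 12.27 at ZT18 and 9.73, 11.76 and 9.63 at ZT0 (difference -2.14 ± 0.58, limma adjusted p = 0.131; -1.81 without that array). Heme synthesis and its P450 reductase had 5 of 12 lower and 0 higher (6 lower without ZT0 replicate 1). Blvrb, biliverdin reductase B, was the nearest of these to the threshold, with 11.62, 11.84 and 11.52 at ZT18 and 10.25, 10.66 and 10.54 at ZT0 (difference -1.18, adjusted p = 0.0913; -1.06 without it). Drug-metabolizing P450s had 6 of 23 lower and 1 higher, the same counts with and without it, and Cyp2c39 was the higher gene with all arrays (1.5, adjusted p = 0.147; 0.98 without it). Nuclear receptors and their coregulators had 7 of 26 lower and 0 higher, and 6 and 0 without it. Nr1i3, the xenobiotic receptor CAR, read 13.82, 14.29 and 13.27 at ZT18 and 12.06, 12.22 and 10.71 at ZT0 (difference -2.13, adjusted p = 0.150; -2.33 without it), and Ppard differed by -1.56 (adjusted p = 0.0949; -1.30 without it). Pemt, which makes phosphatidylcholine from phosphatidylethanolamine, read 13.55, 13.45 and 13.46 at ZT18 and 12.79, 13.05 and 12.71 at ZT0 (difference -0.64, adjusted p = 0.104; -0.61 without it).

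Growth and stress genes gave counts that shifted when ZT0 replicate 1 was left out. Ribosome biogenesis had 8 of 35 members lower and 0 higher, but 2 lower and 1 higher without that array. Nolc1, a nucleolar protein, was at 9.99 at ZT18 and 8.67 at ZT0 (difference -1.32, limma adjusted p = 0.104; -1.13 without it). Heat shock genes had 5 of 24 lower and 0 higher, and 2 lower and 1 higher without it. Bag3, a co-chaperone, read 10.19, 10.20 and 10.09 at ZT18 and 8.54, 8.74 and 9.30 at ZT0 (difference -1.30, adjusted p = 0.0796; -1.14 without ZT0 replicate 1). Amino acid breakdown and the urea cycle had 7 of 34 lower and 0 higher, and 10 lower without it. Among glucocorticoid targets, 4 of 24 were higher and 7 lower, and 0 and 5 without ZT0 replicate 1. Tsc22d3, the glucocorticoid-induced leucine zipper, read 9.39, 8.91 and 8.22 at ZT18 and 6.77, 7.35 and 6.67 at ZT0 (difference -1.91, adjusted p = 0.0958; -1.83 without it). The metallothionein Mt2, in contrast, read 7.45, 7.71 and 7.40 at ZT18 and 15.89, 7.92 and 8.30 at ZT0, so that its mean difference of 3.19 came to 0.59 without ZT0 replicate 1. For 2 of its 4 probe sets the top of the scale was reached on at least 1 of the 6 arrays.

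Interferon and cell cycle lists had more members higher than lower at ZT0. Interferon response genes had 4 of 25 members higher and 0 lower (median 0.30), and 6 higher with a median of 0.35 without ZT0 replicate 1. Usp18, which dampens interferon signalling, read 6.77, 7.59 and 7.86 at ZT18 and 8.14, 8.37 and 9.23 at ZT0, without overlap (difference 1.17, limma adjusted p = 0.214; 1.39 without that array). Cell cycle genes had 5 of 25 higher and 2 lower, and 5 and 1 without it. Mki67, the Ki-67 proliferation marker, read 5.91, 5.94 and 5.85 at ZT18 and 8.54, 6.20 and 10.16 at ZT0 (difference 2.40, adjusted p = 0.131; 2.28 without ZT0 replicate 1). Top2a followed with 5.13, 5.43 and 5.54 at ZT18 and 7.31, 5.78 and 8.92 at ZT0 (difference 1.97, and 1.98 without ZT0 replicate 1). In both genes ZT0 replicate 3 was the highest of the 24 arrays. The ZT18 values of both lay under the background of 6.17, so the sizes of these differences are uncertain. Of the 25 cell cycle genes, 15 had means above background, and Top2a did not. Immediate-early genes had 2 of 23 higher (8.7%) and 0 lower, and 1 and 0 without ZT0 replicate 1. These higher counts were near the all-gene shares of 5.58% and 4.19%, and 15 of the 23 genes had means above background. Atf3 read 6.75, 7.18 and 8.81 at ZT0 against 5.92, 6.52 and 6.00 at ZT18 (difference 1.44, adjusted p = 0.182; 1.85 without that array).

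Kupffer cell markers had 11 of 13 members higher at ZT0 (median 1.81), and 3 with a median of 0.68 without ZT0 replicate 1. Neutrophil markers, of which 0 of 12 had a mean above background, had 9 higher (median 1.97), and 3 with a median of 0.26 without ZT0 replicate 1. Acute-phase genes had 10 of 26 higher and 2 lower (median 0.62), and 0 and 1 with a median of 0.12 without it. No member of these lists passed after adjustment. C1qa, a complement gene of macrophages, read 7.61, 7.52 and 7.76 at ZT18 and 11.03, 8.17 and 9.30 at ZT0 (difference 1.87, limma adjusted p = 0.104; 1.10 without ZT0 replicate 1), so that its groups did not overlap with or without that array. Hepatocyte identity genes had a median of 0.02, with 3 of 12 lower, and 1 lower without ZT0 replicate 1.

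**Figure D4:**
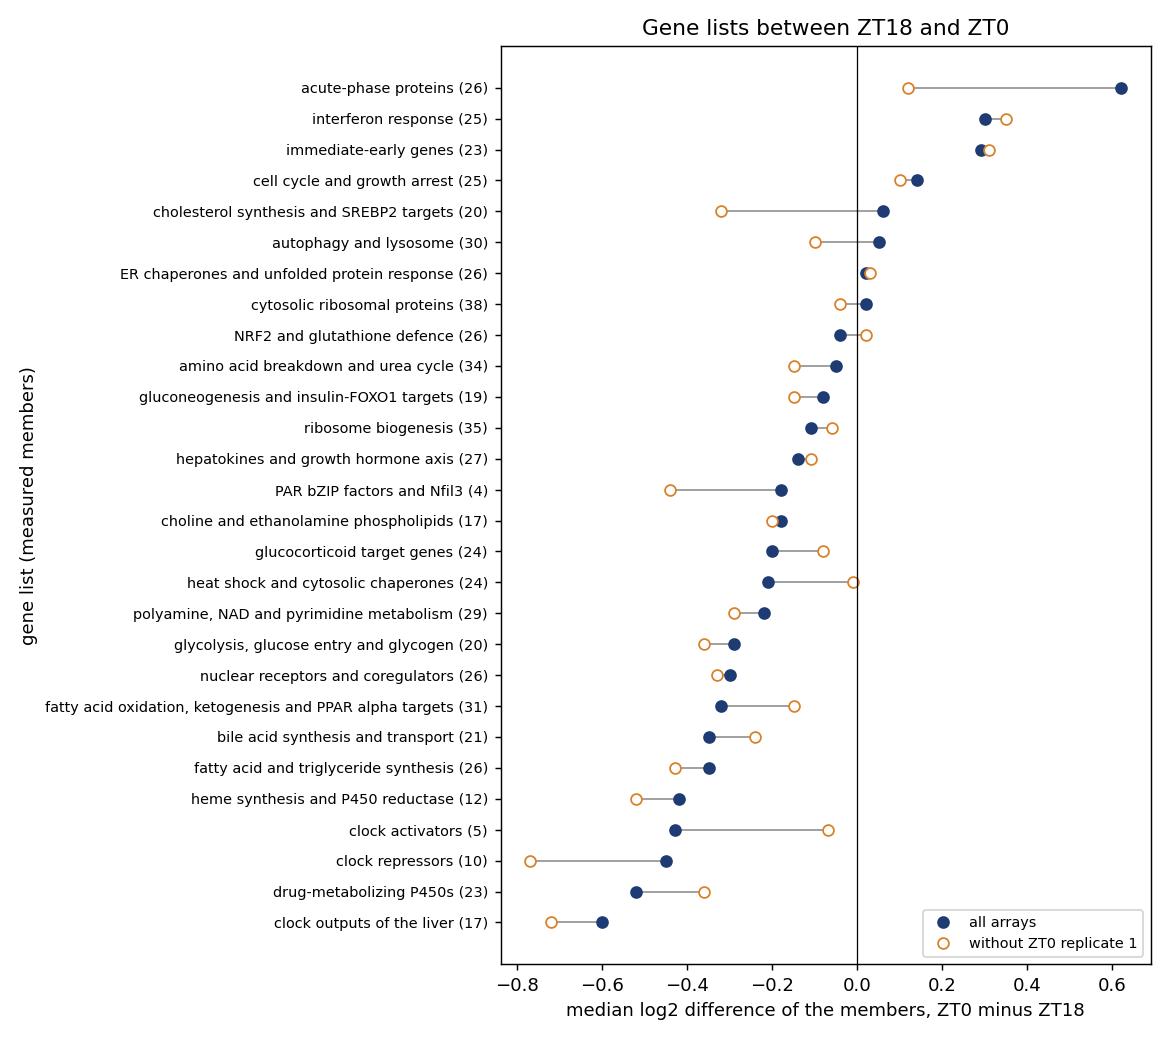
Median log2 difference, ZT0 minus ZT18 (horizontal axis), of the measured members of 28 gene lists (vertical axis, with the number of members); filled points use all arrays and open points leave out ZT0 replicate 1. The median is below 0 for 20 lists with all arrays and for 22 without that array, and it shifts most for acute-phase proteins (0.62 to 0.12).

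The step was then set against the last 6 h of the light phase, ZT6 to ZT12, which shares no array with it. No gene passed for ZT12 against ZT6 alone (0 of 23152, 0.0%, with 2111 at an unadjusted p under 0.05). The difference of the 2 steps passed for 135 genes (0.583%), of which 115 (0.497%) were more negative from ZT18 to ZT0. That is 85.2% of them, against 68.9% of 106 genes after quantile normalization. The count ranged from 26 without ZT12 replicate 3 to 213 without ZT0 replicate 2, where the more negative share was 62.0%. All 135 had opposite signs in the 2 steps, and 23 of them also passed between ZT18 and ZT0. Selection for a large difference of the steps favours opposite signs, and the share over all genes was not counted. Both tests use the same ZT0 and ZT18 arrays, so an overlap is built in. Without ZT0 replicate 1 the difference of the steps passed for 100 genes, of which 78 were shared with the 135. Cry1 had a mean of 7.22 at ZT6 and 9.54 at ZT12, a log2 difference of 2.32 against -2.92 in the dark step, and the steps differed by -5.24 ± 0.72 (SE; limma adjusted p = 0.00447). Ppp1r3b went from 10.30 to 13.49 in the light step, and the steps differed by -5.61 ± 0.91 (adjusted p = 0.00950). Srm, spermidine synthase, went from 9.27 to 10.56, and the steps differed by -2.25 ± 0.37 (adjusted p = 0.00950). Nr1d1 had the reverse order, with means of 11.51 and 8.0 at ZT6 and ZT12, and a difference of the steps of 6.50 ± 1.16 (adjusted p = 0.0144). Mif had means of 13.27 and 13.62 in the light step, and its steps differed by -2.28 ± 0.37 (adjusted p = 0.00950). Each of these genes also passed without ZT0 replicate 1.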

How the data were processed

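Liver RNA of 24 samples was measured on whole-transcript arrays, and the 3 ZT0 and 3 ZT18 samples were compared. The deposited values are log2 expression per probe set, normalized by the authors; the method is not given in the sources used here. The submitters' processing notes name limma, Affymetrix Power Tools 2.10.0 and mm10, with no role stated. Of 269479 probe sets, 233753 had 1 gene symbol and were averaged into 23152 genes (2189 symbols were updated through RefSeq). No filter was set. The scale ends at 19.93, which no probe set of a passing gene reached on any of the 6 arrays.

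A limma 3.58.1 fit (R 4.3.3) over all 24 arrays with 8 time-point means gave two-sided moderated tests of ZT0 minus ZT18 and of its difference from ZT12 minus ZT6, with Benjamini-Hochberg adjustment over all genes. The script was tested on simulated data. The number of arrays limits the precision. Replicate numbers did not pair the samples.

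Genes named are all measured clock genes; up to 12 rises and 12 falls that passed, lay above the 95th percentile of 1101 olfactory receptor genes and did not overlap (2 and 12 qualified); and 3 members per other pathway list with the smallest p. Exceptions are marked as chosen after their values were seen, as are the marker genes, Usp2, Pck1, Cyp4a14, Elovl3 and Tk1. The comparison, the members and the 28 pathway and 14 cell type lists (780 genes, 733 measured) were chosen with earlier results of these data known. Alternatives were other probe-set summaries, normalizations, weights, fits and left-out arrays. Promoters came from RefSeq windows (GRCm38.p6), which 26 passing genes and 17 clock genes had.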

Additional observations from a re-analysis of the deposited data

Results flagged for a closer look

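The change from ZT18 to ZT0 differed from that between ZT6 and ZT12, by a limma test of the difference itself with adjustment over all genes, for 135 genes, of which 25 are named here. Differences are given as the first step minus the second, on the log2 scale. Among clock genes the difference was -5.24 for Cry1, -3.13 for Per2 and 6.50 for Nr1d1. Among genes that passed between ZT18 and ZT0 it was -6.63 for Nat8f6, -3.07 for Ces1d, -2.28 for Mif, -2.16 for both Tmem25 and Afmid, -2.03 for Nat8f7, -1.68 for Slc50a1, -1.64 for Gchfr, -1.59 for Slc29a1, -1.47 for Chchd10, -1.30 for Rnasek, 1.15 for Ifih1 and 1.87 for Zfp808. Among the pathway genes it was -5.61 for Ppp1r3b (glycogen), -3.13 for Lonrf3 (clock output), -3.11 for Pmvk (mevalonate pathway), -2.25 for Srm (spermidine), -2.11 for Nolc1 (nucleolus), -1.99 for Agpat2 (triglyceride), -1.39 for Gsta3 (a glutathione transferase with 3 of 8 probe sets at the top of the scale on at least 1 of the 6 arrays), 1.62 for Gdf15 (a hormone of cell stress) and 2.99 for Abcg5 (sterol export). All 25 kept their sign without ZT0 replicate 1, which their selection with the same remaining arrays favours. Of the 25 genes, 19 passed, and Abcg5, Chchd10, Gsta3, Ifih1, Nolc1 and Pmvk did not.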

How the results depend on the processing

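The number of genes that passed between ZT18 and ZT0, 31 in the report, ranged from 0 to 420 when single arrays were left out, and 35.7% of the 420, without ZT0 replicate 2, were lower at ZT0. It was 13 with array weights, 6 with the brightest probe set of each gene (2 of them shared with the 31), 67 among genes above background, 1 with probe sets summarised by their median, 11 after quantile normalization, 8 with weights per time point and 0 in a fit of the 6 arrays alone (2080 genes at an unadjusted limma p under 0.05). With replicates 2 and 3 only, chosen after seeing the data, it was 0 (2536 at an unadjusted p under 0.05). Because the arrays of the 31 genes do not overlap, only other probe-set summaries and normalizations could turn a sign. Left-out arrays, weights and other fits could not. The same sign held in each of up to 19 alternatives for 30 of the 31 genes. The exception was Atp2a3, at -0.12 (adjusted p = 0.987) with the brightest probe set; its adjusted p ranged from 0.00897 to 0.987. Mif passed in 15 of the 19, Slc50a1 in 13 and Cry1 in 10, with adjusted p from 0.00399 to 0.289, 0.00519 to 0.289 and 0.000305 to 0.317. Many of the 31 genes passed in fewer settings. Ifih1 and Ces1d did so in 8, Zfp808 in 7, and Chchd10, Tmem25, Smarca2 and Uqcrc1 in 6. Aco1 passed in 5, and Atp2a3, with the fewest, in 4 of the 18 run for it.

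The number whose steps differed, 135 in the report, was 259 with array weights, 14 with the brightest probe set, 205 with each array centred on its median, 312 among genes above background, 39 with probe-set medians and 55 in a fit of 12 arrays. It ranged from 26 (without ZT12 replicate 3) to 213 (without ZT0 replicate 2) when single arrays were left out, and the share that was more negative was 85.2%, against 68.9% of 106 after quantile normalization and 62.0% without ZT0 replicate 2. Gsta3 came to 0.00 (adjusted p = 1.0) with the brightest probe set. The omission of ZT12 replicate 2 gave 58, of ZT18 replicates 1, 2 and 3 gave 56, 47 and 56, and of ZT6 replicates 2 and 3 gave 46 and 40.

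With the replicate number as a block, 14 genes passed between ZT18 and ZT0, 12 of them shared, and 113 differed between the steps. Same-numbered ZT0 and ZT18 arrays deviated from their means with correlations of -0.0100, -0.0076 and -0.0433 over genes, so the numbers were not taken to pair the samples. Limits are the 3 arrays per time, the spread at ZT0, and the top of the scale, above which differences of Saa2, Orm2, Elovl3 and Mt2 cannot be seen.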

Other observations

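The genes beside Mif on chromosome 10 were looked at after its value was seen. From Ddt to Chchd10, a stretch of 167 kb, 10 genes were measured and 9 had a lower mean at ZT0, 2 of which passed (Mif and Chchd10). Over all genes, 51% were lower at ZT0. The stretch was set around Mif with 2 genes that fell as its ends, so the count is partly fixed by that choice. Mmp11, Gstt4 and Derl3 had means below the background level. Ddt, the paralogue of Mif that encodes D-dopachrome tautomerase, read 14.78, 14.76 and 14.40 at ZT18 and 13.20, 13.72 and 13.93 at ZT0, a difference of -1.03 ± 0.21 (SE; limma adjusted p = 0.0553), and -0.82 without ZT0 replicate 1. The glutathione transferases Gstt1 and Gstt3 differed by -1.16 (adjusted p = 0.0913) and -1.72 (0.134), Mmp11 by -0.68 (0.112), and Gstt2 by 0.31 (0.866).

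Fgf21, a fasting hormone of the liver chosen after its values were seen, read 8.08, 7.22 and 6.95 at ZT18 and 5.95, 8.55 and 11.08 at ZT0, where ZT0 replicate 3 was the highest of the 24 arrays and ZT0 replicate 1 the lowest.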
